A study of Danio rerio with 10 samples.

Results

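A set of 45 zebrafish gene models had lower RNA levels in cebra mutant embryos than in their heterozygous siblings, out of 36351 gene models in the table. RNA came from whole Danio rerio embryos at 28 hours post fertilisation (hpf), in 4 libraries of genotype cebra and 4 of heterozygous siblings (het). The labels do not name the mutated gene or say how many embryos a library holds, and no wild-type library was compared. All levels are in CPM, the reads of a model over all reads of its library, scaled to a library total of 1000000, unless another scale is named. The 45 were chosen from cebra replicates 1, 3 and 4 and the 4 het libraries. Their mean het level was at least 1 and below 500 CPM, every one of the 3 cebra values lay below every het value, and the cebra mean was at least 1.5-fold below the het mean. Cebra replicate 2 took no part in the choice. The values of the other 7 libraries therefore describe the set and test nothing.

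The series concerns cilia and the Reissner fiber. This fiber is a thread of the secreted glycoprotein SCO-spondin that runs through the fluid of the brain ventricles and the central canal of the spinal cord. Motile cilia beat along the walls of these cavities and move the fluid, and zebrafish embryos with immotile cilia or without the fiber fail to straighten the body axis. The deposited table gives each gene model an identifier but no gene symbol, and 0 of the identifiers matched a symbol table. No function, position or sequence can be given for a member, lists of cilia or fiber genes could not be read, and tissue markers could not be checked. Each member is named by the length of its model in bases, which is different for all 45. In RNA from whole embryos, fewer cells of a type and less RNA per cell cannot be told apart.

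Library totals ran from 50634030 to 71877787 counts. The member of lowest het level, of 69 bases, had 62 to 78 counts per het library. Cebra replicate 2 stood apart from all other libraries: its TMM factor, the scaling that edgeR gives each library, was 0.798 against 1.01 to 1.05 elsewhere. Of the 19476 models of 1 to 500 CPM in het, 63.4% lay below every het library in cebra replicate 2 and 21.5% above every one. Summed levels, medians and shares of the members in this library are given apart from those in the other cebra libraries. Some ranges of single models, and fits where stated, take in every cebra library. Libraries of equal replicate number deviated together in both groups. They were treated as pairs where a pair is named and in fits with a term for replicate number (the replicate block). The rule and the main fits did not use the pairs.

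The set was small and mostly of low level. In the 1 to 500 CPM range, 990 models, or 5.08%, had all 3 cebra values below all 4 het values, and 77 had a cebra mean at least 1.5-fold lower. The 45 models that met both conditions are 0.231% of the range, and 54 models met the mirrored conditions for higher levels. Median het level was 2.76 CPM among the members and 13.2 CPM over the range. Of the members, 17 had a het mean of 1 to 2 CPM, 16 of 2 to 5, 7 of 5 to 10 and 5 of more than 10 CPM. Their models were also shorter, with a median of 2098 bases against 3522 over the range. Among models under 10 CPM the medians were 1951 bases for the 40 members and 3032 bases for all 8420. Of the members, 4 (8.89%) were shorter than 500 bases, against 1.03% of the range. Per kilobase of model the median het level was 1.3002 CPM for members and 3.87 CPM over the range.

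**Figure D1:**
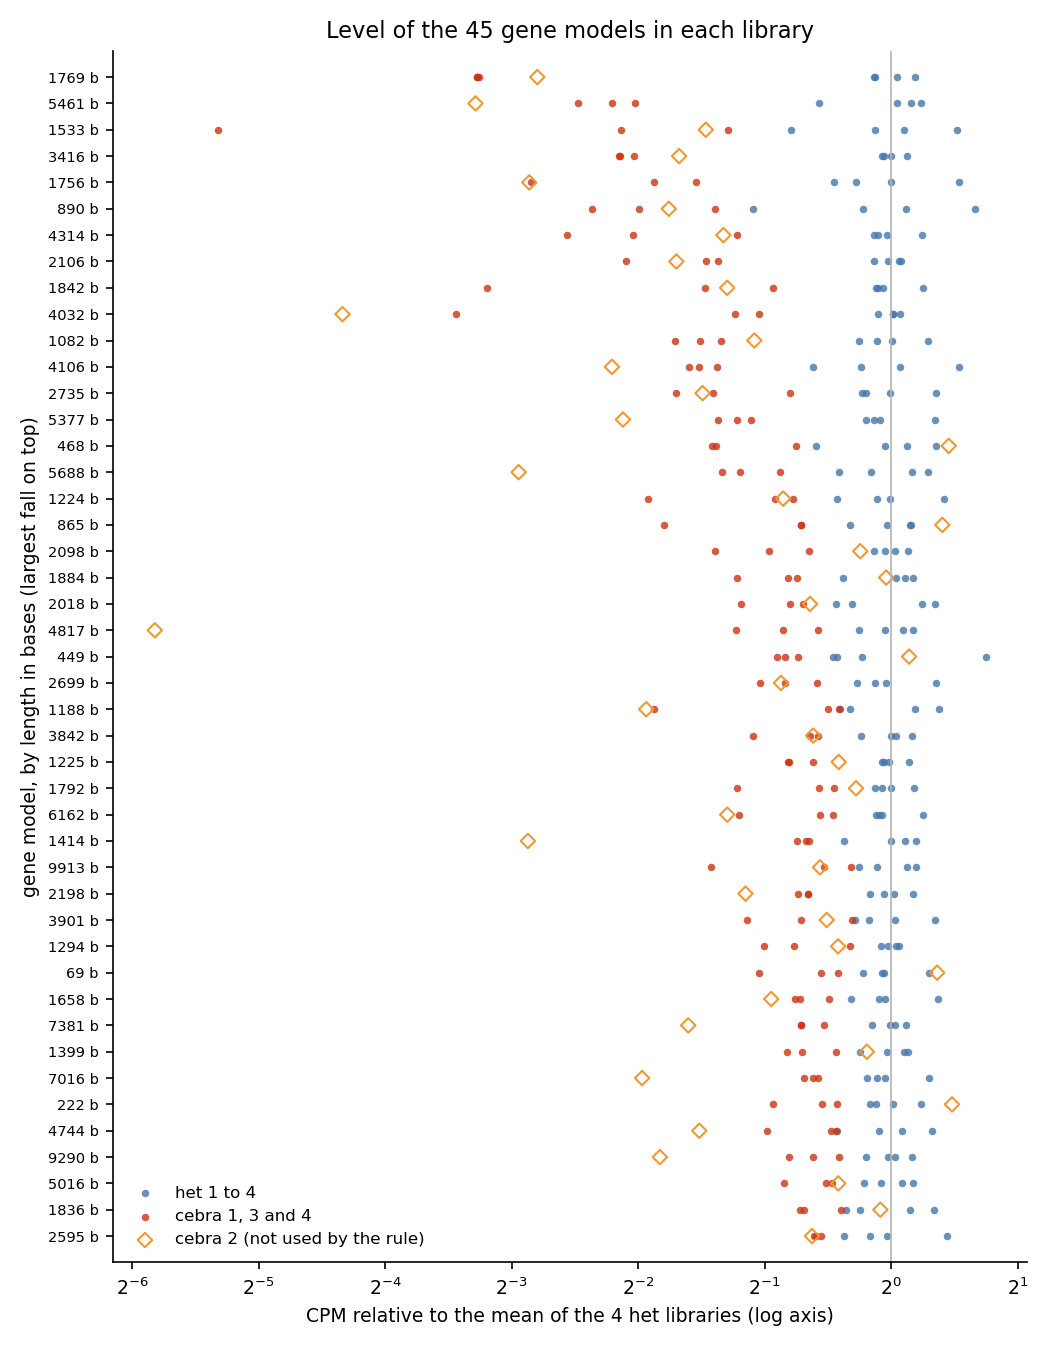
Level of each of the 45 gene models in each library, divided by the mean of the 4 het libraries, on a log axis, with the largest fall on top. Blue points are the het libraries, red points cebra 1, 3 and 4, and open diamonds cebra 2, which lies below every het point for 37 models.

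The size of the difference ranged from 9.62-fold down to 1.501-fold, with a median of 1.77-fold. It was at least 4-fold for 4 members, 2-fold to 4-fold for 13 and under 2-fold for 28. The space between the groups was often narrow. The lowest het value was at least 2-fold above the highest of cebra 1, 3 and 4 for 7 members and less than 1.1-fold above it for 5, with a median of 1.27-fold. The narrowest space was that of the 1188-base model, where het replicate 4 stood at 1.52 CPM and cebra replicate 1 at 1.52 CPM, a ratio of 1.0003.

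The widest separation belonged to LL0000024109, of 1769 bases. In het it stood at 52.2, 59.3, 52.4 and 65.5 CPM in replicates 1 to 4. In cebra replicates 1, 3 and 4 it stood at 5.94, 6.01 and 5.92 CPM, and in cebra replicate 2 at 8.25 CPM. All 4 cebra libraries lay far below the lowest het library. The means were 57.3 ± 6.37 CPM (SD, n = 4) and 5.96 ± 0.0425 CPM (SD, n = 3), a 9.62-fold difference. It was also the most abundant member, both in CPM and per kilobase, at 32.4 CPM per kilobase in het. The model of 3416 bases was the other abundant member past 4-fold. It stood at 31.5, 32.7, 31.1 and 35.7 CPM in het replicates 1 to 4, at 7.999, 7.37 and 7.41 CPM in cebra replicates 1, 3 and 4 and at 10.3 CPM in cebra replicate 2. Its 4.31-fold difference left a 3.89-fold space between the lowest het and the highest of the 3 cebra values. Both models thus had narrow spreads within het and within cebra 1, 3 and 4. In both, cebra replicate 2 stood above those 3 cebra libraries and still lay far below het.

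LL0000011872, of 5461 bases, was lower at a much smaller level. Its het values were 3.55, 3.28, 3.74 and 2.14 CPM in replicates 1 to 4, and its cebra values 0.573, 0.689 and 0.780 CPM in replicates 1, 3 and 4 and 0.326 CPM in replicate 2. The difference was 4.66-fold, and the held-out library was the lowest of all 8. The model of 1533 bases is the fourth member past 4-fold, at 4.53-fold, and its groups lay much closer. It had 76, 79, 111 and 39 counts in het replicates 1 to 4, and 24, 27, 16 and 2 counts in cebra replicates 1 to 4. Its coefficient of variation (CV, SD over mean) in cebra 1, 3 and 4 was 87.3%, the highest of all members. It met the rule without the libraries numbered 4 but not without those numbered 3, where its het mean fell below the 1 CPM floor.

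Of the 6 members next in fold size, all had het means under 5 CPM. The 1756-base model stood at 2.23, 2.70, 1.98 and 3.91 CPM in het replicates 1 to 4 and at 0.928, 0.372, 0.738 and 0.376 CPM in cebra replicates 1 to 4. The 890-base model had 68, 33, 80 and 102 counts in het against 14, 21, 13 and 29 in cebra, and its het CV of 46.5% was the highest of the set. The model of 4314 bases held 76 to 90 counts in het, 15 to 28 in cebra replicates 1, 3 and 4 and 33 in cebra replicate 2. These groups stayed apart in all 4 cebra libraries, at counts where a few reads move a CPM value visibly. The model of 2106 bases ran from 1.24 to 1.44 CPM in het and from 0.318 to 0.525 CPM in cebra, a 3.05-fold difference over cebra 1, 3 and 4 with a het CV of 6.70%. The 1842-base model stood at 4.17, 4.14, 4.29 and 5.37 CPM in het replicates 1 to 4 and at 1.62, 1.83, 2.35 and 0.491 CPM in cebra replicates 1 to 4. The 4032-base model had 91, 84, 78 and 74 counts in het replicates 1 to 4 and 27, 4, 37 and 8 in cebra replicates 1 to 4. Its het values were among the tightest of the set, with a CV of 5.00%, while its cebra values split into a lower pair, replicates 2 and 4, and a higher pair, replicates 1 and 3.

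The other 7 members of at least 2-fold ran from 2.17-fold to 2.85-fold. The 1082-base model, at 6.53 ± 1.08 CPM in het (SD, n = 4) and 2.29 ± 0.285 CPM in cebra 1, 3 and 4 (SD, n = 3), had the largest fold among them and the widest space, 2.13-fold. The 5688-base model went from 4.40 to 7.18 CPM in het and from 2.31 to 3.18 CPM in cebra 1, 3 and 4. Those of 4106, 2735 and 5377 bases had het means of 2.94, 1.79 and 2.76 CPM and cebra replicate 2 at 0.636 CPM in each. The 1224-base model had a 2.17-fold difference, and the 468-base model, at 2.22-fold, is described with the short models.

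Beside the 1769-base and 3416-base models, 3 members exceeded 10 CPM in het, and all 3 were long models with folds near the limit. The 7381-base model stood at 28.8, 31.3, 26.005 and 29.6 CPM in het replicates 1 to 4 and at 17.7, 17.6 and 20.1 CPM in cebra replicates 1, 3 and 4, a 1.57-fold difference. The 9290-base model had 23.4, 20.4, 18.2 and 21.3 CPM in het and 13.6, 15.7 and 11.9 CPM in those cebra libraries, 1.52-fold lower. The 6162-base model had 12.4, 9.56, 9.89 and 9.74 CPM in het and 7.05, 7.55 and 4.51 CPM in the same cebra libraries, 1.63-fold lower. Cebra replicate 2 lay below all the others in each, at 9.52, 5.86 and 4.23 CPM. For these long models that direction is common in that library, as set out below. The remaining 5 of the 10 members of highest het level, of 2699, 1082, 5688, 9913 and 4817 bases, had het means of 8.65, 6.53, 5.85, 5.52 and 5.26 CPM.

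**Figure D2:**
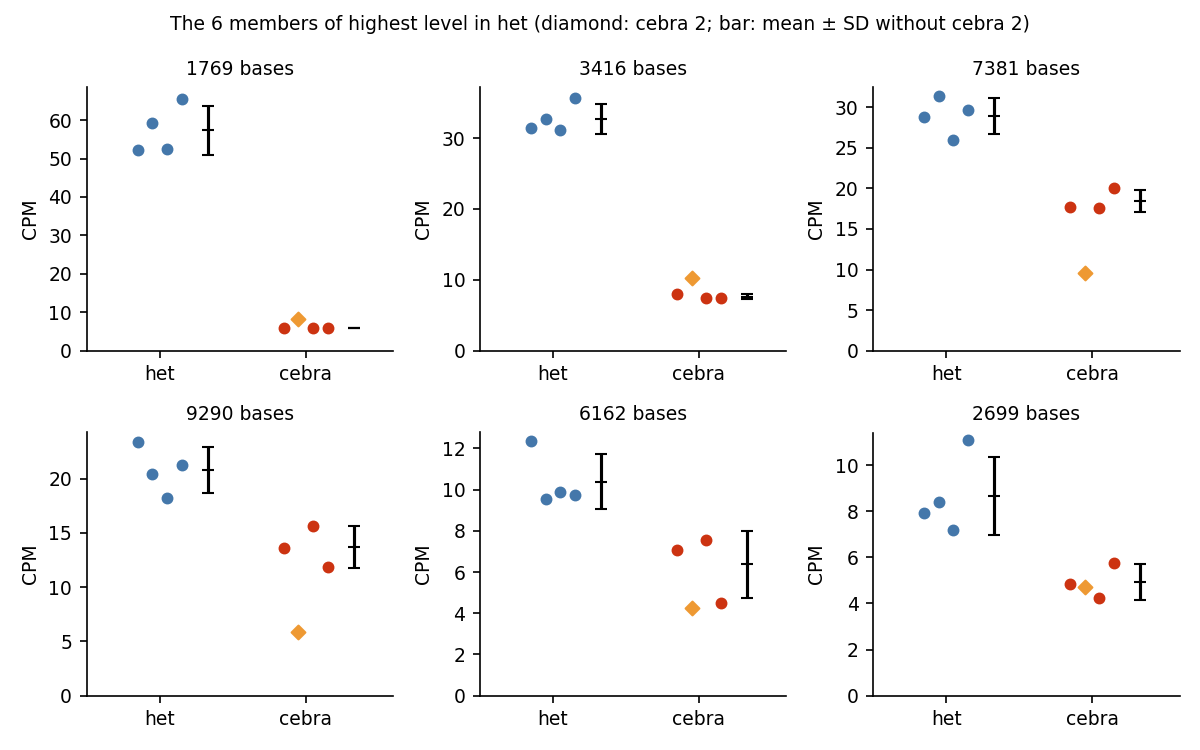
CPM by library of the 6 members of highest het level, each axis starting at 0. Circles are libraries, the diamond is cebra 2, and bars give the mean ± SD of 4 het and of 3 cebra libraries (1, 3 and 4). In all 6 the 4 cebra libraries lie below the 4 het libraries.

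Just inside the fold limit stood the models of 2595, 1836 and 5016 bases, at 1.501-fold, 1.51-fold and 1.51-fold, with het means of 3.37, 1.56 and 1.95 CPM. Just outside it, with groups that also did not overlap, were models of 6544, 2254 and 1150 bases, at 1.499-fold, 1.495-fold and 1.495-fold and het means of 30.5, 1.04 and 1.28 CPM. The levels on both sides of the limit overlapped.

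Within the groups the members' median CV was 15.9% over the het libraries and 17.5% over cebra 1, 3 and 4. For all models under 10 CPM it was 11.9% in both groups. That background was not matched to the members' level, a median of 2.76 CPM in het. Whether the difference in CV goes beyond one of level was not tested. Cebra replicate 4 was the lowest of cebra 1, 3 and 4 for 26 members (57.8%), against 36.7% of the range, and for 23.4% of the 990 models with separated groups. Het replicate 4 was the highest het library for 23 members (51.1%), against 30.7% of the range and 27.1% of those 990 models. Both held at once for 13 members (28.9%), against 5.08% of the range and 4.34% of the 990. In 6 members, of 1533, 1842, 4032, 1224, 865 and 1188 bases, cebra replicate 4 was at most 0.5 times the lower of cebra 1 and 3, which was so for 0.560% of the range. The rule asks for a large mean difference, so it favours low values in its cebra libraries and high values in het libraries. The replicate 4 libraries also differed most from others of their group, by chi-square over degrees of freedom between 2 libraries. It was 20.1 to 37.1 for het replicate 4 with other het libraries, and 11.3 to 17.5 among those others. For cebra replicate 4 with cebra 1 and 3 it was 19.7 and 27.6, and 10.6 between cebra 1 and 3. Cebra replicate 2 is left aside here. The cause of the pattern at replicate 4 was not tested.

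Pooling the members, their CPM summed to 243 to 284 in the het libraries, to 110, 116 and 103 in cebra replicates 1, 3 and 4 and to 99.8 in cebra replicate 2. The 1769-base and 3416-base models weigh most in the het sums. As a median over members, which weights all alike, the level relative to the het mean was 55.9%, 59.2% and 47.0% in cebra replicates 1, 3 and 4 and 45.04% in cebra replicate 2. In CPM the held-out library was thus as low as the libraries that chose the set. Its median log2 ratio to the mean of cebra 1, 3 and 4 was 0.136 among members and -0.462 over the range.

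That library also lies low for most other models, so it was read against the same measure over the range. It lay below every het library for 37 of the 45 members (82.2%), within the het values for 4 and above every one for 4. The background was 63.4% below. The median log2 ratio of cebra replicate 2 to the het mean was -1.15 among members and -0.43 over the range. Cebra replicate 2 was at most 1/1.5 of the het mean for 30 members (66.7%) and for 42.4% of the range. The het values took part in the choice of members, which favours high het values, and the members' share carries that.

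In cebra replicate 2 the ratio to het went with model length. Its median log2 ratio over the range was 0.47 for models under 1000 bases, 0.20 for 1000 to 2000 bases, -0.27 for 2000 to 4000 bases and -0.85 above 4000 bases. Split in the same way, a split chosen after the values were seen, 1 of 6 members under 1000 bases lay below every het library, where the background was 28.2%. From 1000 to 2000 bases it was 12 of 15 members against 24.8% of models. From 2000 to 4000 bases it was 10 of 10 against 59.4%, and above 4000 bases 14 of 14 against 86.8%. The share stood furthest from its background between 1000 and 2000 bases, where members had a median log2 ratio of -0.95 and all models 0.20. Relative to a smooth trend on log2 length, 43 of 45 members lay below the trend, against 53.4% of the range. The exceptions were the models of 5016 and 9913 bases. The het values in this ratio took part in the choice of members. With het replicate 2 also left out of the rule, 57 models were chosen. In the ratio of cebra replicate 2 to het replicate 2, 50 of them (87.7%) lay below the length trend, against 53.6% of models. The difference was not tested.

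**Figure D3:**
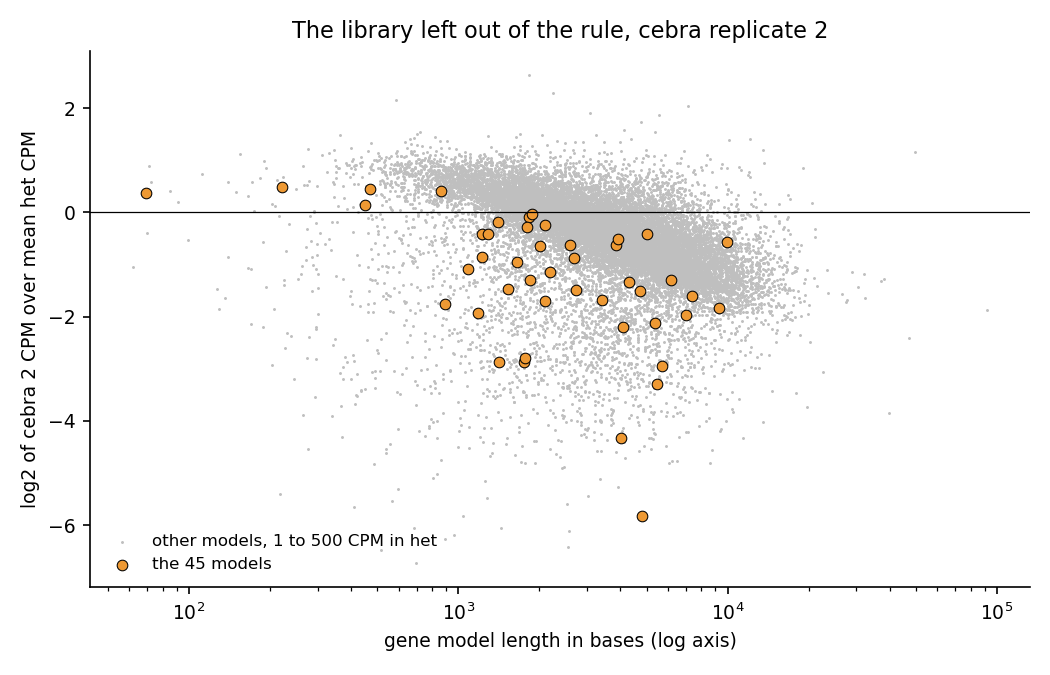
Log2 ratio of CPM in cebra 2 over the het mean, against gene model length on a log axis. Grey points are the other models of 1 to 500 CPM in het (1 model with 0 counts in cebra 2 is not drawn). Orange points are the 45 models. Of these, 43 lie below a smooth trend with length, fitted over grey and orange points together and not drawn.

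The 4 members above every het library in cebra replicate 2 were all shorter than 1000 bases. The 468-base model had 3.54 CPM there against 1.71 to 3.30 CPM in het and 0.968 to 1.53 CPM in cebra 1, 3 and 4. The 865-base model had 3.38 CPM there, with 2.04 to 2.84 CPM in het. For the models of 222 and 69 bases the values were 1.69 and 1.40 CPM, against highest het values of 1.43 and 1.33 CPM. The 449-base model, at 3.07 CPM, lay within a het range that one library widened. Its het values were 4.67, 2.37, 2.02 and 2.07 CPM in replicates 1 to 4. The 890-base model was the only member under 1000 bases that was lower than every het library in cebra replicate 2. The other 3 members within the het values there had 1399, 1836 and 1884 bases.

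At the other end, the 4817-base model was almost absent from cebra replicate 2 although well present in the other cebra libraries. It had 6 counts there, against 114, 215 and 201 in cebra replicates 1, 3 and 4 and 295 to 403 in het. The 4032-base model had 4 counts there and 8 in cebra replicate 4. Across the set, cebra replicate 2 lay below the lowest of cebra 1, 3 and 4 for 17 members, above the highest for 16 and among them for 12.

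Cebra replicate 2 was also tested alone against the 4 het libraries, with edgeR's quasi-likelihood test over 27080 models, TMM scaling and a Benjamini-Hochberg adjusted p of 0.05. The lone library is assumed in this test to vary like the het libraries, which the rule used. Cebra replicate 2 differed from the other cebra libraries at a chi-square over degrees of freedom of 296 to 346, against 10.6 to 37.1 between all other libraries of a group, so the calls describe this library and not the genotype. All 45 members were tested, and 22 of them (48.9%) passed as lower, where 26% of all models did. The difference between these shares was not tested. Higher calls covered 24.5% of all models and took in 4 members, those of 468, 865, 69 and 222 bases, a count of 2 without het replicate 2 or het replicate 3. No p-value is given for single members, since that spread could not be estimated for cebra replicate 2. Among the lower calls, log2 cebra replicate 2 over het was -2.42 for the 1769-base model, -1.296 for the 3416-base model, -5.42 for the 4817-base model, -2.90 for the 5461-base model and -2.47 for the 1756-base model. The 1533-base and 890-base models, at -1.09 and -1.37, did not pass. Of the 28 members under 2-fold, 21 lay below every het library in cebra replicate 2 by CPM, and of the 17 members of at least 2-fold 16 did. Over the range 63.4% of models lay below in that way, and 86.8% of those above 4000 bases. The counts were not tested against these shares.

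A reading with no shared library was had by applying the rule without both libraries of one replicate number and comparing that left-out cebra library with the left-out het library. This was added after the values were seen. Cebra replicate 2 took no part in any of these choices, so leaving out number 1, 3 or 4 removed a further cebra library. The lists without those numbers thus rest on fewer cebra libraries than the list without number 2. Without number 1 the rule chose 85 models, of which 60 (70.6%) were lower in cebra in the left-out pair, against 43.1% of models in the range. Without number 3 it chose 86, of which 63 (73.3%) were lower, against 41.3%. Without number 4 it chose 72, of which 54 (75%) were lower, against 44.2%. Without number 2 it chose 57, of which 50 (87.7%) were lower, against 72.9%. The share among chosen models was above the background share in each left-out pair, a difference that was not tested.

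The median size fell short of the 1.5-fold limit in left-out pairs 1 and 3 and went past it in pairs 4 and 2. The median log2 ratio of cebra to het among the chosen models was -0.35, -0.28 and -0.66 in pairs 1, 3 and 4, against 0.03, 0.04 and 0.03 in the range. In pair 2 it was -1.18 against -0.44. A cebra level at least 1.5-fold lower was found for 38.8%, 22.1% and 51.4% of the chosen models in pairs 1, 3 and 4, where 1.17%, 0.776% and 1.94% of the range had it. Pair 2 had 70.2% against 42.6%. The range was not matched to the chosen models in level. Its median het level was 13.2 CPM, against 2.76 CPM among the 45 members. The chosen lists overlap between the 4 readings, so these are not independent of each other. The members were chosen by the full rule, and their groups stay apart when libraries are taken away. Leaving out a number could thus fail a member only on the fold limit or the 1 CPM floor, and the next counts describe the set. Of the 45 members, 27 met the rule whichever number was left out, among them 15 of the 17 members of at least 2-fold. The exceptions were the 1533-base model, lost without number 3, and the 890-base model, lost without number 4. Both were lost because the mean of the remaining het libraries fell below the 1 CPM floor. Their groups stayed apart and past the fold limit.

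**Figure D4:**
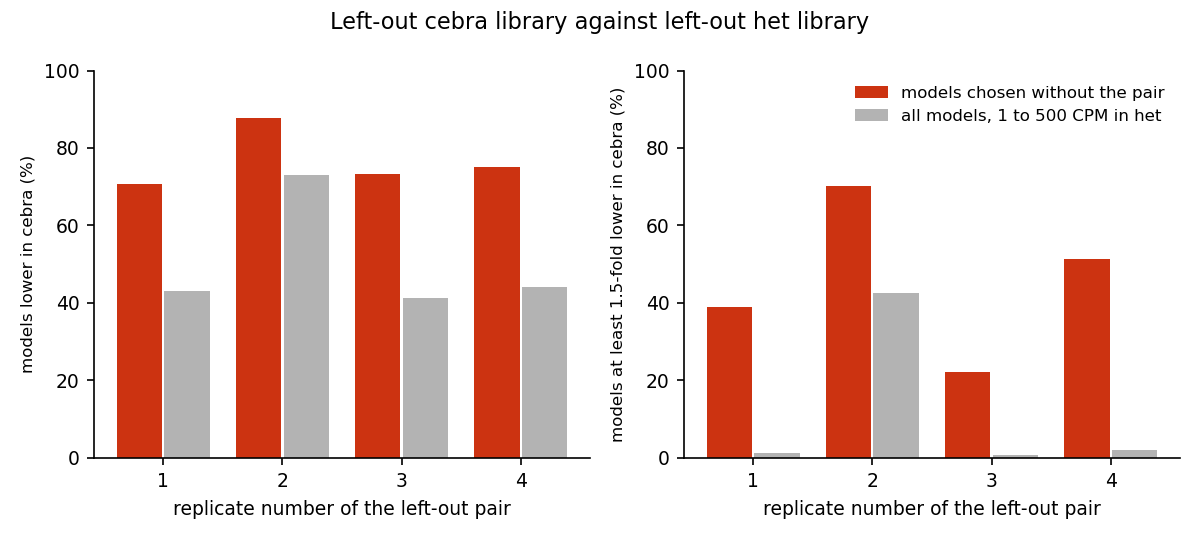
Share of models lower in cebra (left) and at least 1.5-fold lower (right) when the left-out cebra library is set against the left-out het library, for models chosen without that pair (red) and for all models of 1 to 500 CPM in het (grey). The left panel shows 70.6% to 87.7% against 41.3% to 72.9%.

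The labels' protocol counts 5 controls and 5 mutants for RNA sequencing. The series lists 4 RNA libraries of each group, and all of them were analysed here. In the comparison of 4 cebra against 4 het libraries, edgeR called 4 of 25342 models lower (0.0158%), and 3 members were among them, those of 1769, 5461 and 3416 bases. The choice of members used this contrast, so the count is a description. When the replicate block was added, edgeR called 0 of all 25342 models, lower or higher, and thus 0 members. In that fit 33 of the 45 members and 434 of all 25342 models were lower at an unadjusted p under 0.05. The choice of members favoured such low values, so this count too is a description. DESeq2 without the block called 15 members beside a background of 0.0888%. Without cebra replicate 2 edgeR called 7 members beside a background of 0.0547%. Over pairs 1, 3 and 4 with the block it called 29 members beside 2.04%. Both fits without cebra replicate 2 held only libraries that the rule used.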

How the data were processed

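RNA was profiled in 4 cebra and 4 het libraries. The table that the authors deposited holds raw, whole-number counts for each gene model and its length in bases. Subread alignment files were counted, per the file headers. Build GRCz11, DESeq2 and cutadapt are named in the submitters' processing notes. No source used here states the annotation, strand or multi-mapping settings, so near-identical or overlapping models may share reads. The labels do not say that libraries came from separate embryos, so p-values measure the spread between these libraries. The 2 genome sequencing samples were not analysed here.

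CPM is count over column total, with no pseudocount. Fits used R 4.3.3 and edgeR 4.0.16 (filterByExpr, TMM, quasi-likelihood, two-sided, Benjamini-Hochberg FDR 0.05 over all models tested), with DESeq2 1.42.0 as an alternative. The fitting code was run on simulated counts. Those counts held no length trend like that of cebra replicate 2, so they cannot vouch for the fit of that library alone. The length trend is a lowess (span 0.3, statsmodels 0.14.6). The SE is the log2 fold change over the square root of F.

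Deviations from group means correlated at 0.268, 0.281, 0.264 and 0.414 between libraries of equal number 1 to 4. Between libraries of unequal number the correlation ran from -0.279 to 0.213, the highest being cebra replicate 3 with het replicate 1. Pairing rests on these correlations. No libraries of a group agreed within sampling noise (chi-square over degrees of freedom 10.6 to 37.1, and 296 to 346 for the pairs with cebra replicate 2). The members and lists were chosen with earlier results of these data known. Identifiers are printed for the 2 members of smallest p over 8 libraries. Other named members are the 10 of largest fold, the 10 of highest het mean, 3 on each side of the fold limit and those of cebra replicate 2 above every het. Further members were named after their values were seen. Other settings were scalings, filters, floors, fold limits, the replicate block and leaving out each library.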

Additional observations from a re-analysis of the deposited data

Results flagged for a closer look

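A single library far from the other 3 of its group was sought in 94 sets of 4 values, covering both groups for each member, for the library totals and for the summed levels. It was found in 9. Chance marks about 1 in 20 sets of unselected values, but most of these values took part in the choice of members, so that rate is no yardstick here. Of these, 4 were cebra replicate 2. It stood above the other cebra libraries at 8.25 CPM for the 1769-base model and at 3.07 CPM for the 449-base model, and below them at 0.155 CPM for the 1414-base model and at 0.558 CPM for the 7016-base model. The mark of the 1769-base model rests on how close the other 3 values lie, 5.92 to 6.01 CPM. Cebra replicate 4 was low, at 0.737 CPM, for the 3842-base model. Het replicate 4 was high for the 1842-base model at 5.37 CPM and for the 5377-base model at 3.52 CPM. Het replicate 1 was high for the 449-base model at 4.67 CPM and for the 6162-base model at 12.4 CPM. No cause of these values was tested.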

How the results depend on the processing

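The number of members was 55 with TMM-scaled or RLE-scaled CPM, including all 45. It was 71 and 28 with a floor of 0.5 and 2 CPM, 110 and 17 with a fold limit of 1.3 and 2, 37 with cebra replicate 2 also below every het library, and 50 to 78 when one library was left out of the rule, the highest without cebra replicate 1 (76) and 3 (78). For cebra replicate 2, TMM scaling moved the median of the range from -0.43 to -0.08 and that of members to -0.79, with 28 of 45 members below every het library (62.2%) against 45.5% of the range. With the length trend removed the members' median was -0.79 and 35 members (77.8%) lay below every het library, against 39.8%. Under 10 CPM the median was -0.91, and under 1000 bases 1 member lay below every het library. In pair 2 alone, the replicate block, 39 members were below het replicate 2 (86.7% against 73.0%). Leaving out a het library, which can only raise this count for any list of models, gave 37 to 39 members below every remaining het library. Models called lower over the 8 libraries numbered 30 with DESeq2 and 0 with the replicate block (434 lower at an unadjusted p under 0.05). Over pairs 1, 3 and 4 alone with the replicate block, without both libraries numbered 2, they numbered 519. Members called numbered 15, 0 and 29. The fit over pairs 1, 3 and 4 held only libraries that the rule used. Leaving out one library gave 0 to 14 models and 0 to 7 members in edgeR. The counts were 0 without cebra replicate 1, 3 or 4 or het replicate 2, with 27 or 28 members at an unadjusted p under 0.05. Over all models 370, 310, 382 and 213 were lower at that p in these refits, of 25592 to 25703 tested. The choice of members favoured a low p. The calls were 14 models and 7 members without cebra replicate 2. Models and members were 1 and 1 without het replicate 1 or 3, and 2 and 2 without het replicate 4. The members were chosen for low values in cebra replicates 1, 3 and 4, so a negative fold change was favoured in advance. Over 630 refits of single members 625 log2 fold changes were negative. The exceptions were the 222-base model without cebra replicate 1 (0.026), 3 (0.0039) or 4 (0.11), the 69-base model without cebra replicate 3 (0.039) and the 449-base model without het replicate 1 (0.0097). With one library left out, their lowest values, all without cebra replicate 2, were -0.65, -0.68 and -0.86. In the fits of cebra replicate 2 alone, the members' median log2 fold change ran from -0.816 to -0.708 over the settings tried. Over all models tested the median ran from -0.0194 to 0.00886. The cause of these shifts was not tested. Members had 281 to 14866 counts over the 4 het libraries, and those at the low end limit how finely a 1.5-fold difference can be read.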
